A study of Gossypium hirsutum with 6 samples.

Results

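Developing fibers of *G. hirsutum* cv. TM1, the Upland cotton line, were profiled on 2-colour oligonucleotide arrays. The transcripts described here are the 4 probes annotated as 40S ribosomal protein S18, 60S ribosomal protein L5, translation initiation factor eIF-1A and ethylene-responsive RNA helicase, whose probe numbers on the array are GA_10dpa_fiberEST_11614, GA_10dpa_fiberEST_12542, GA_10dpa_fiberEST_10518 and GA_10dpa_fiberEST_02353. They were taken by probe number, and they are 4 of 11882 probes with a value at all 6 stages. The annotations are the study's best matches to genes of other species. All 4 stand in a list of genes that the study chose partly on these samples. The listed genes were called developmentally regulated in both TM1 and Pima cotton (*G. barbadense*). They were also among the genes whose expression lay furthest apart between these species at 17 and 24 days post-anthesis. The values of the 4 probes at those stages thus helped to select them, so their changes are not independent evidence of regulation.

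The stages were 8, 10 and 14 days post-anthesis (dpa), when the fiber elongates and lays down its primary cell wall (PCW), 17 dpa, the PCW/SCW transition, and 21 and 24 dpa, when the secondary cell wall (SCW) is built. Every stage was expressed relative to fiber of 5 dpa. All plants were of 1 genotype, with no treatment named, grown in a greenhouse in randomized blocks, and total RNA came from the harvested fibers. Each stage has 1 deposited profile of log2 ratios, in which -1 is a transcript level 2-fold lower than at 5 dpa. The profiles combine hybridizations and hold no replicates, so no p-value could be computed, and calls rest on the size of a difference alone. Less of the transcript per cell and fewer cells that hold it cannot be told apart in such extracts. A measure of technical spread comes from 17 probe numbers deposited under a pair of entries. Both entries stand in the same profile, so this measure holds no spread between harvests or plants. It was taken at single stages, and the spread of a step between stages was not computed. Values for the 6 stages are given below in the order 8, 10, 14, 17, 21 and 24 dpa. In that order the median difference between paired entries was 0.13, 0.25, 0.32, 0.42, 0.40 and 0.62 log2 units. The SD of the difference was wider, at 0.28, 0.80, 0.62, 0.88, 0.94 and 1.56. Where the difference between paired entries is named below, the median is meant, and some pairs differed by more.

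A ribosome is assembled from a small (40S) and a large (60S) subunit, each made of ribosomal RNA and many proteins. In eukaryotes, S18 belongs to the small subunit, and L5 belongs to the large subunit, where it is bound to the 5S ribosomal RNA. eIF-1A is an initiation factor that binds the small subunit and helps it find the start codon. DEAD box RNA helicases use ATP to open short RNA duplexes, and members of this family act in ribosome assembly, splicing, translation and RNA decay. A fiber is a single epidermal cell of the seed coat that elongates for weeks and then thickens its wall with cellulose.

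The 4 transcripts did not follow 1 course. By the deposited ratios, the RNA helicase was 11.5-fold lower at 24 dpa than at 5 dpa, eIF-1A was between 1.53-fold and 2.74-fold lower at every stage, S18 was 1.91-fold lower at 24 dpa, and L5 ended close to its 5 dpa level. The fold of the helicase is of uncertain size, because its spots were not above the buffer spots in 3 of 12 scanner files, among them 1 of the 2 files of the 24 dpa sample. eIF-1A was not above the buffer spots in that 24 dpa file either, so its fold at 24 dpa is uncertain too. At 24 dpa, 2 of the 4 probes were at least 2-fold lower than at 5 dpa, against 12.3% of all probes. At 8 dpa it was 1 of 4, with 2.77% of all probes. Among the 124 probes of the study's list with all 6 values, 41 were this much lower at 24 dpa and 9 at 8 dpa. The list was chosen partly on 24 dpa values, so the count of 2 of 4 there is not a result about these genes. None of the 4 passed this fold at 10 dpa (2.08% of all probes), 14 dpa (4.26%), 17 dpa (7.09%) or 21 dpa (7.02%), and none was at least 2-fold higher at any stage, a call made for 3.20%, 2.82%, 3.79%, 5.90%, 5.97% and 11.3% of all probes over the 6 stages. At a lower fold of 1.5, the stages of 8, 14 and 17 dpa had 2 lower probes of the 4, beside 9.35% of all probes at 8 dpa, 1420 of 11882 at 14 dpa and 15.8% at 17 dpa. The stages of 10 and 21 dpa had 1, beside 7.22% and 15.9%, and 24 dpa had 3, beside 23.3%. At a fold of 3, only the helicase at 24 dpa passed (4.93% of all probes), and 0 of the 4 at 8 dpa (0.833%). The median of the 4 log2 ratios over the 6 stages was -0.55, -0.28, -0.56, -0.63, -0.52 and -1.19, while the median of all probes stayed between -0.01 and 0.00. Without the helicase the median at 8 dpa was -0.38.

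**Figure D1:**
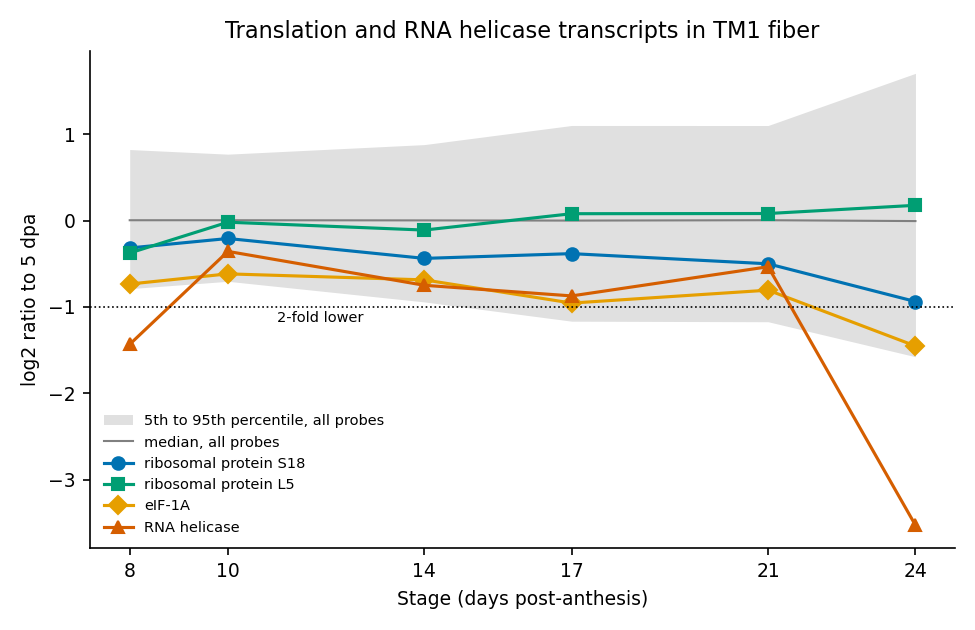
Log2 ratio to 5 dpa of the 4 probes (vertical axis) at each stage in days post-anthesis (horizontal axis), with 1 point per stage and no error bars because there is 1 profile per stage. The grey band holds the 5th to 95th percentile of all probes and the grey line is their median; the RNA helicase lies below the band at 8 dpa (-1.43) and 24 dpa (-3.53), while L5 stays near 0.

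Among the ribosomal proteins, S18 had log2 ratios of -0.32, -0.21, -0.44, -0.38, -0.50 and -0.94 over the 6 stages. It was thus below its 5 dpa level at all 6 stages, a course by sign that 20.0% of all probes shared. The ratio was highest at 10 dpa and lowest at 24 dpa, where the transcript stood at 52.2% of its 5 dpa level and 13.7% of all probes had lower ratios. The first 5 ratios spanned 0.29 log2 units. Paired entries differed by less than this at 8 and 10 dpa (0.13 and 0.25) and by more at 14, 17 and 21 dpa (0.32, 0.42 and 0.40). At 10 and 17 dpa the distance from 5 dpa was itself smaller than the difference between paired entries. The difference between 24 and 21 dpa was -0.44, within the 0.62 by which paired entries differed at 24 dpa, and 2376 of 11882 probes had a more negative one.

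L5, of the large subunit, had log2 ratios of -0.38, -0.02, -0.11, 0.08, 0.08 and 0.18. Only at 8 dpa was its distance from 5 dpa larger than the difference between paired entries. At 24 dpa its level was 113% of that at 5 dpa, and 59.9% of all probes had lower ratios. L5 was thus lowest at 8 dpa and highest at 24 dpa, where S18 was lowest, and its whole range was 0.55 log2 units. The median range of all probes was 0.77 log2 units, and 32.6% of probes had a smaller range than L5.

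The initiation factor eIF-1A had log2 ratios of -0.73, -0.62, -0.69, -0.95, -0.81 and -1.45. It was at least 1.5-fold lower than at 5 dpa at all 6 stages, which 2.20% of all probes were, and none of the other 3 probes was. Its distance from 5 dpa was larger than the median difference between paired entries at every stage. At 10, 21 and 24 dpa that distance was smaller than the SD of the difference (0.80, 0.94 and 1.56). The lowering was already present at 8 dpa, at 60.1% of the 5 dpa level, and the 5 ratios of 8 to 21 dpa lay within 0.34 log2 units of each other. At 24 dpa it stood at 36.6% of the 5 dpa level. The size of this value is uncertain, since eIF-1A read only 0.41 times the buffer threshold in the Cy3 file of the 24 dpa sample. The step from 21 to 24 dpa was -0.65, little more than the difference of 0.62 between paired entries at 24 dpa, and 1453 of 11882 probes had a more negative one.

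The ethylene-responsive RNA helicase, matched to the Arabidopsis DEAD box helicase RH20, had the widest course of the 4. Its log2 ratios were -1.43, -0.36, -0.75, -0.87, -0.53 and -3.53. It was low at 8 dpa, where 127 of 11882 probes were lower, and lowest at 24 dpa, where 45 were lower, with intermediate values at the 4 stages between. Its level was 37.0% of that at 5 dpa at 8 dpa, between 54.6% and 78.1% at 10 to 21 dpa, and 8.68% at 24 dpa. Its range was 3.17 log2 units, wider than that of 96.3% of probes, and 1.08 log2 units without 24 dpa.

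The widest steps between successive stages were both of the helicase. From 8 to 10 dpa its log2 ratio rose by 1.08, a 2.11-fold difference, and 3.06% of all probes rose at least 2-fold in that step. The size of this rise is uncertain. In the files of the 8 and 10 dpa samples the helicase read only 1.60 to 2.29 times the buffer threshold. From 21 to 24 dpa it fell by 2.99 on the log2 scale, a 7.96-fold difference. In that step 5.70% of all probes fell at least 2-fold and 44 fell more than the helicase. This size too is uncertain, since the helicase read below 0 in 1 file of the 24 dpa sample and 1.32 and 1.47 times the buffer threshold in those of the 21 dpa sample. Of the 20 steps of the 4 probes, the other 18 were between -0.65 and 0.36. From 21 to 24 dpa S18 differed by -0.44 and eIF-1A by -0.65, in the direction of the helicase, and L5 by 0.10.

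**Figure D2:**
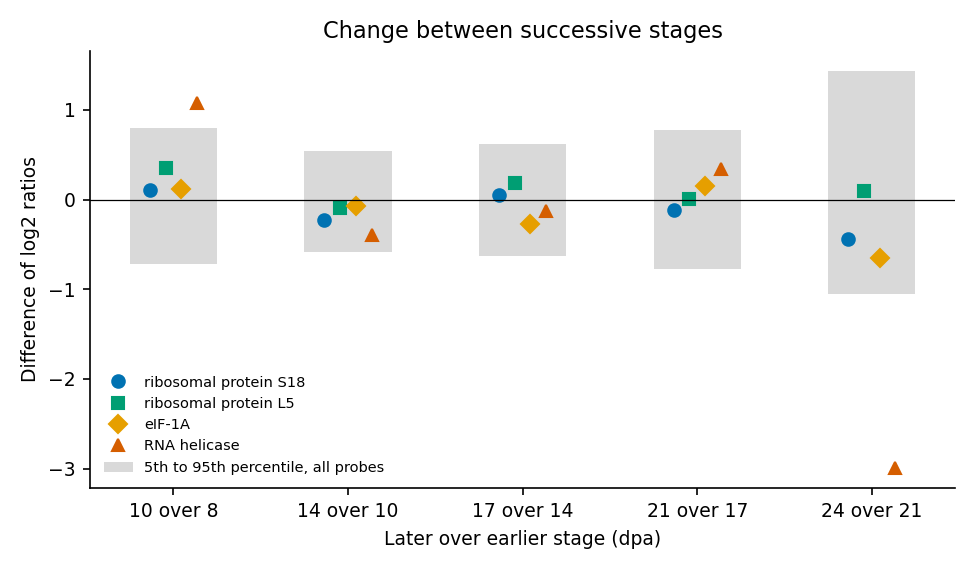
Difference of log2 ratios between each stage and the one before it (vertical axis) for each of the 5 steps (horizontal axis), with 1 point per probe. The grey bars span the 5th to 95th percentile of all probes; only the RNA helicase lies outside them, at 1.08 for 10 over 8 dpa and -2.99 for 24 over 21 dpa.

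Averaged over the SCW stages (21 and 24 dpa) and the PCW stages (8, 10 and 14 dpa), the order of the 4 probes relative to 5 dpa was the same in both phases, with L5 highest, then S18, eIF-1A and the helicase. L5 averaged 0.13 in the SCW stages and -0.17 in the PCW stages. S18 averaged -0.72 in the SCW stages and -0.32 in the PCW stages. eIF-1A averaged -1.13 in the SCW stages and -0.68 in the PCW stages. The helicase averaged -2.03 in the SCW stages and -0.85 in the PCW stages. The SCW mean was thus at least 2-fold below 5 dpa for eIF-1A and the helicase, beside 8.24% of all probes, and the PCW mean for none of the 4, beside 2.14%. Both calls rested on 24 dpa, since at 21 dpa alone eIF-1A was at -0.81 and the helicase at -0.53. At single stages the order changed. The helicase was above eIF-1A at 10 dpa (-0.36 against -0.62), 17 dpa (-0.87 against -0.95) and 21 dpa (-0.53 against -0.81), and L5 was below S18 at 8 dpa (-0.38 against -0.32). Of these exchanges, only that at 10 dpa was larger than the median difference between paired entries, and it was within the SD of 0.80.

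The profiles of S18 and eIF-1A were the most alike of the 6 pairs, with a Euclidean distance of 1.04 log2 units over the 6 stages. This was not a close match, since 2772 of all probes were nearer to S18 than eIF-1A was. The Pearson correlation of S18 and eIF-1A was 0.92 over the 6 stages and 0.48 without 24 dpa. The corresponding values were 0.91 and 0.25 for eIF-1A and the helicase, and 0.87 and 0.01 for S18 and the helicase. All 3 had their low point at 24 dpa. L5 was negatively correlated with S18 (-0.58), eIF-1A (-0.60) and the helicase (-0.27) over the 6 stages. Without 24 dpa these values were -0.31, -0.40 and 0.78, so that the sign for L5 and the helicase turned. All values are ratios to the same 5 dpa fiber and come from the same arrays, and each correlation has 6 points.

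For each probe, the described probes with the nearest profile were found by Euclidean distance among the 62 other described probes of the study's list. For S18 they were a GTP-binding protein matched to a Rab GTPase of Arabidopsis, a class of proteins that directs vesicle traffic (distance 0.32), and a tonoplast intrinsic protein, a water channel of the vacuole membrane (0.69). The GTP-binding protein had log2 ratios of -0.25 at 8 dpa and -0.88 at 24 dpa, and 94 of all probes were nearer to S18 than it was. For L5 they were a PCF2-like DNA binding protein of the TCP family of plant transcription factors (0.85) and the same tonoplast intrinsic protein (0.92). These were not close matches, since 3575 probes were nearer to L5 than the first of them, and the water channel ran the other way over the stages, with a correlation of -0.92.

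For eIF-1A the nearest were a calcium-dependent protein kinase (0.42), an enzyme class that relays calcium signals, and a ZF-HD homeobox protein (0.46), a plant transcription factor. Like eIF-1A, both lay below 5 dpa at every stage, and at 24 dpa the kinase was at -1.36 and the homeobox protein at -1.59. For the helicase they were a probe matched to CPL4, an Arabidopsis phosphatase of the RNA polymerase II C-terminal domain (1.05), and a cytoplasmic aspartate aminotransferase (1.68), an enzyme of amino acid metabolism. Both had their low point at 24 dpa, the CPL4-like probe at -2.85 and the aminotransferase at -2.55. Only 8 of all probes were nearer to the helicase than the CPL4-like probe. That probe was above the buffer spots, described next, in 4 of 12 scanner files.

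The spot signal was read from 12 scanner files, each holding 1 dye of 1 array, which are part of the hybridizations behind the ratios. They come from 7 arrays, of which 5 have files for both dyes. Every probe is printed in duplicate, and 327 or 328 spots of each file hold buffer alone. A probe was called above the buffer spots when its mean signal minus local background exceeded the median of those spots by over 3 median absolute deviations, scaled to the size of an SD. This threshold lay between 37.4 and 275 intensity units. S18 and L5 passed in all 12 files, eIF-1A in 11 and the helicase in 9, while 35.3% of all probe numbers passed in all 12 and 68.9% in at least 9. Under a threshold of the buffer mean plus 3 SD, computed per file after subtraction of each spot's local background, S18 and L5 passed in 3 files each and eIF-1A and the helicase in 0. The study's own filter used a threshold of this kind with background means per sub-array, so the inputs differ.

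S18 had between 46.3 and 3198 intensity units over the 12 files, with a median of 785. L5 had between 330 and 1718, with a median of 838. eIF-1A had between 15.5 and 1580, with a median of 752. The helicase had between -2.20 and 1267, with a median of 141, and a value below 0 is a spot dimmer than its surroundings. The lowest value of each probe was in the Cy3 file of the 24 dpa sample, the dimmest file, in which the median probe had 34.3 units and 46.9% of probe numbers were above the buffer spots.

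**Figure D3:**
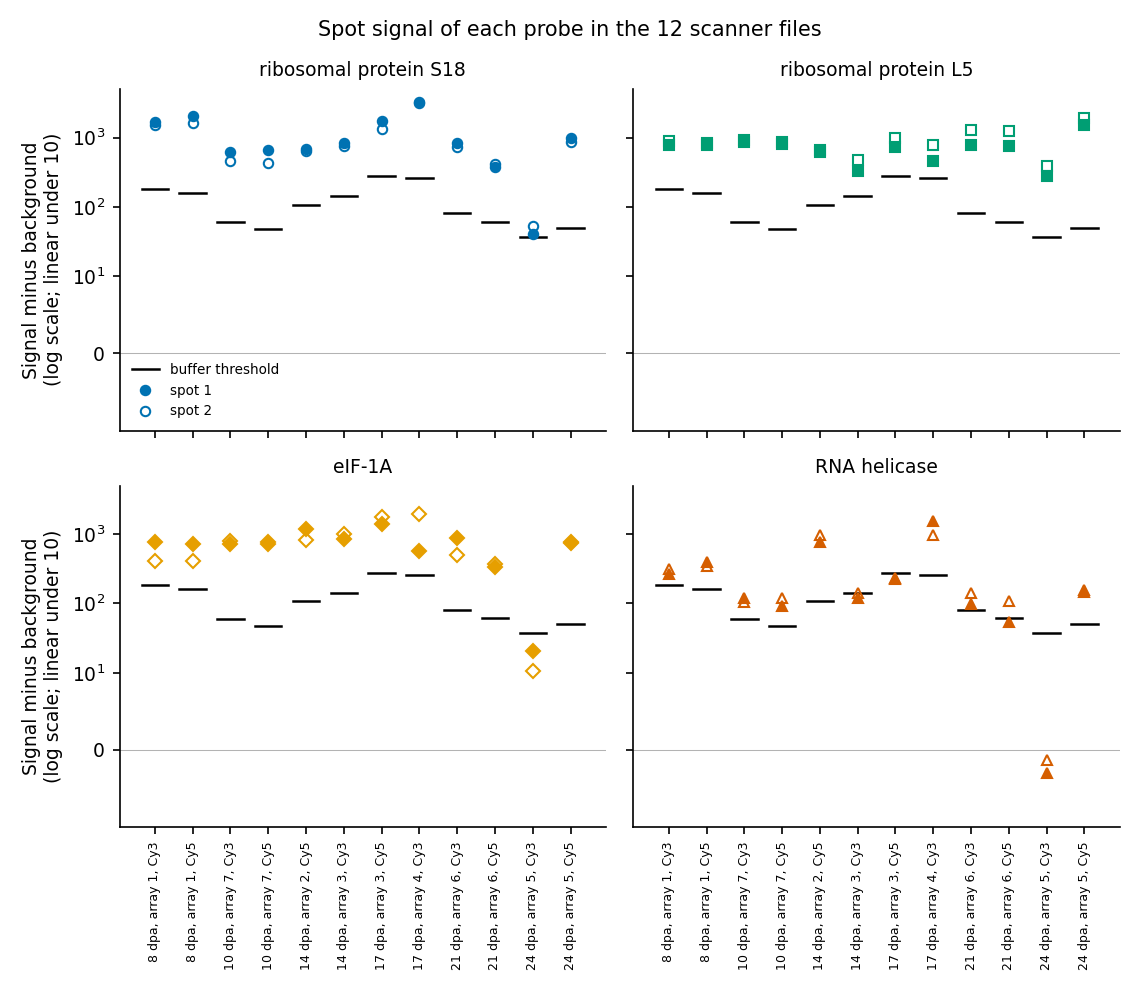
Signal minus local background of the duplicate spots of each probe (vertical axis, logarithmic above 10 and linear below) in the 12 scanner files (horizontal axis, labelled by the stage of the sample, array and dye). Filled and open symbols are the duplicate spots and black bars are the buffer threshold; the helicase lies between 0.83 and 2.29 times the bar in 8 of 12 files and below 0 in 1, and eIF-1A falls below it only in the Cy3 file of the 24 dpa sample.

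The array of the 24 dpa sample bears most closely on the low ratios at that stage. In its Cy3 file the duplicate spots of the helicase read -3.05 and -1.36 units and those of eIF-1A 20.5 and 10.5, all below the threshold of 37.4. S18 read 40.2 and 52.4 units there and L5 read 278 and 383, above the threshold. In its Cy5 file, with a threshold of 49.8, the helicase read 156 and 144 units, eIF-1A 764 and 748, S18 980 and 855 and L5 1513 and 1923. Relative to all probes of the same file, L5 was brighter than 95.9% in Cy3 and 94.8% in Cy5, and S18 than 59.0% and 86.1%. In Cy5 eIF-1A was brighter than 82.1% of probes and the helicase than 26.4%. In Cy3 eIF-1A was brighter than 29.5% and the helicase than 8.34%. Neither was above the buffer spots in Cy3, so their ranks there are of little weight. L5 thus held its place in both dyes, while S18, eIF-1A and the helicase stood lower in Cy3. Which dye carried the RNA of 24 dpa is not given in the sources used here, so this difference has no direction in time.

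The helicase spots stood apart in another way. In the single-dye files of array 2 (14 dpa sample, Cy5) and array 4 (17 dpa sample, Cy3) they read 760 and 981 units, and 1560 and 974 units, brighter than 74.4% and 77.9% of probes. In the other 7 files where it was above the buffer spots, the helicase was brighter than 24.2% to 48.9% of probes. On the shared array of the 14 and 17 dpa samples it read 119 and 143 units in Cy3 and 223 and 236 in Cy5, and in each its mean was below the buffer threshold. The files of the 14 and 17 dpa samples therefore disagreed on whether the helicase was above the buffer spots. eIF-1A had 1 of its duplicate spots marked by hand in both files of the 21 dpa sample, where the remaining spot read 507 and 376 units. On array 4 the eIF-1A duplicates read 562 and 1969 units, the widest disagreement between duplicates of that probe.

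On the 5 arrays with both dyes, the size of the difference between the dyes was computed after background correction and loess normalization, without a direction. On the array of the 24 dpa sample it was 1.15 ± 0.07 log2 units for eIF-1A, 0.96 ± 0.23 for S18, 0.29 ± 0.04 for the helicase and 0.04 ± 0.05 for L5 (SD of the duplicate spots, n = 2). eIF-1A and S18 differed toward the same dye, and 94.95% and 92.4% of probes on that array had smaller differences. On the array of the 21 dpa sample S18 differed by 0.68 ± 0.19 log2 units, more than 90.3% of probes, and L5 and the helicase by 0.11 and 0.04. On the arrays of the 8 and 10 dpa samples and the array shared by the 14 and 17 dpa samples, no probe differed by more than 0.28 log2 units. The dye difference of the helicase on the array of the 24 dpa sample was far smaller than its deposited ratio. In this calculation an offset of 50 units was added to signals, and those of the helicase lay near or below 0 in 1 dye. With plain subtraction its difference could not be computed on that array, and those of eIF-1A and S18 were 2.71 and 1.53 log2 units. The arrays need not pair a stage with 5 dpa, because the loop joins several stages, so these sizes are not estimates of the deposited ratios.

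**Figure D4:**
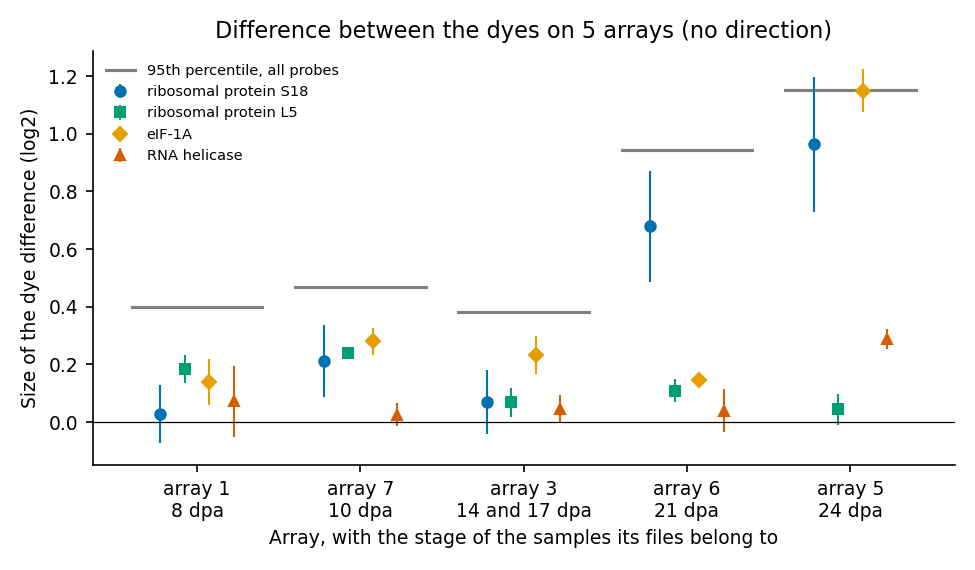
Size of the difference between the dyes in log2 units (vertical axis) for each probe on the 5 arrays with both dyes (horizontal axis, with the stage of the sample). Points are means of the duplicate spots and bars their SD (n = 2, or 1 spot without a bar for eIF-1A on array 6), and grey lines mark the 95th percentile of all probes; S18 and eIF-1A reach 0.96 and 1.15 on array 5 while L5 is at 0.04.

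The list of translation and ribosome genes among the described probes held only 1 further member, GA_10dpa_fiberEST_03821, of unknown function, whose annotation mentions a translation protein domain. Its log2 ratios were 1.26, 0.16, -0.01, -0.36, -0.32 and -1.64. It was thus 2-fold higher at 8 dpa, when the helicase was lower, and 2-fold lower at 24 dpa. Of the 5 probes, 3 were at least 2-fold lower and 0 higher at 24 dpa, beside 12.3% and 11.3% of all probes. In the study's list, chosen partly on 24 dpa, it was 41 and 53 of 124. The median of the 5 was -1.45 at 24 dpa, against -0.21 at 10 dpa and -0.50 at 21 dpa. GA_10dpa_fiberEST_03821 was above the buffer spots in 10 of 12 files. Further ribosomal protein genes were not analysed here.

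Fiber markers were read on 7 probes, all above the buffer spots in 12 of 12 files. Their ratios are to 5 dpa fiber, so they do not test the fiber identity of the samples. At 14 dpa 2 of the 7 were at least 2-fold higher, beside 3.79% of all probes. These were expansin 1, a wall-loosening protein (1.26), and a beta-tubulin, a cytoskeletal protein (1.30). Both sucrose synthases were at least 2-fold lower at 14 dpa (-1.43 and -1.58), beside 4.26% of all probes. At 24 dpa 3 of the 7 were at least 2-fold higher and 2, both sucrose synthases, at least 2-fold lower, beside 11.3% and 12.3% of all probes. The 7 come from the study's list, where 36 of 124 probes were higher and 15 lower at 14 dpa. At 24 dpa 53 of the 124 were higher and 41 lower. The 4 chlorophyll a/b binding protein features, markers of green tissue, were above the buffer spots in 8 to 11 of 12 files. Their median log2 ratios over the 6 stages were -0.62, -0.33, -0.63, -0.70, -0.50 and -0.54, close to the medians of the 4 translation and helicase probes up to 21 dpa and above them at 24 dpa. At 8, 10 and 17 dpa 1 of the 4 features was at least 2-fold lower, beside 2.77%, 2.08% and 7.09% of all probes, and at 24 dpa 0 of the 4 were. It was not the same feature throughout. The feature at -1.85 at 8 dpa was at 0.71 at 10 dpa, and a different feature was at -1.16 at 10 dpa and -1.15 at 17 dpa. A further feature was at 0.60 at 8 dpa, so the medians join features that went opposite ways. Their part in the courses of the 4 translation and helicase probes was not tested.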

How the data were processed

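The authors deposited 1 profile of log2 ratios to 5 dpa per stage. By their methods, spots were flagged by hand, background was subtracted, dim spots (under the mean of the buffer plus 3 SD), divergent dye swaps and sparsely measured genes were removed, lowess normalization was applied, and limma's linear models pooled the hybridizations of the double loop. The authors also deposited 12 scanner files that give mean pixel intensity for spot and local background, not normalized, with 1 dye per file. The sources used here do not settle which stage each dye holds.

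Of 12262 named entries, the 11882 with all 6 values were used without further normalization. Python 3.11.15 and pandas 2.3.3 were used, with limma 3.58.1 in R 4.3.3 for the dye differences (normexp, offset 50, loess within arrays). Flagged spots were left out and duplicate spots averaged. The counting and ranking steps were run on simulated profiles with planted changes far larger than the simulated noise. That run checks the code and does not bear on the calls in these data. A transcript was called at 2-fold. The number of arrays limits the precision, which could not be computed for the deposited ratios.

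The 4 probes, the gene lists and the calls were chosen with earlier results of these data known. The probes named are these 4, the 2 described probes nearest to each, and the members of lists of translation and ribosome, transcription and chromatin, protein folding and turnover, fiber, and leaf genes. Probes described as of unknown function or hypothetical were not ranked. No probe sequence was used here. The alternatives were folds of 1.5 and 3, centring, the mean in place of the median, other SCW stages, other buffer thresholds and other measures of likeness.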

Additional observations from a re-analysis of the deposited data

How the results depend on the processing

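Centring each profile on the median of all probes changed none of the 56 results it was applied to by more than the difference between paired entries, and no value called at 2-fold changed sign under any alternative. The only change of sign was in the step of L5 from 17 to 21 dpa, which was 0.00205 as deposited and -0.00225 after centring. At a fold of 1.5, 2 of the 4 probes were lower at 8, 14 and 17 dpa and 1 at 10 and 21 dpa. At a fold of 3, 0 were lower at 8 dpa and 1 at 24 dpa. A filter chosen after seeing the data kept only probes above the buffer spots in every file. Of the 4 probes, only S18 and L5 pass it, and neither was 2-fold lower at 8 or 24 dpa. The share lower by this fold among all 4203 retained probes was 0.167% (8 dpa) and 7.68% (24 dpa). Low transcripts can themselves fail this filter, so these counts do not bear on the calls. At 8 dpa the mean of the 4 log2 ratios was -0.71, and the median without the helicase, also chosen afterwards, was -0.38. The SCW value of the helicase was -0.53 from 21 dpa alone. With the buffer mean plus 3 SD, S18 and L5 were above the buffer spots in 3 files each and eIF-1A and the helicase in 0. By Pearson correlation, 0 of the 2 described probes nearest to S18, 1 of those nearest to L5 and 1 of those nearest to eIF-1A kept their place. Without 24 dpa, 1 kept its place for S18, 0 for L5 and 1 for the helicase. With plain background subtraction, the dye differences of the helicase were 0.15 on array 3 (14 and 17 dpa samples), 0.21 on array 6 (21 dpa) and 0.24 on array 7 (10 dpa). Those of eIF-1A were 2.71 on array 5 (24 dpa) and 0.15 on array 6. That of S18 was 1.53 on array 5. Those of L5 were 0.16 on array 5, 0.17 on array 6 and 0.19 on array 7. The cause of these differences was not tested. Signal over background limits the helicase most, since it was not above the buffer spots in 3 of 12 files. No paired analysis was possible because each stage has 1 profile, and no replicate could be left out.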

Other observations

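Of 8 measured probes of the transcription and chromatin list, 4 were called higher and 3 lower at 24 dpa by the 2-fold rule, beside 11.3% and 12.3% of all probes. These probes come from the study's list, chosen partly on 24 dpa, where 53 of 124 probes were higher and 41 lower. The counts are therefore not a result about transcription genes. The median was 0.95. Without the probes above the buffer spots in at most 1 of 12 scanner files, a filter chosen after seeing the data, 2 of 6 were higher and 3 lower, and the median was -0.43. A homeobox protein matched to ATHB13, a plant transcription factor, was at 2.41 and a PHD finger protein at -1.62. The probe described as histone deacetylase 6 had log2 ratios of 5.56 at 17 dpa, -4.93 at 21 dpa and 5.63 at 24 dpa and was above the buffer spots in 0 of 12 files. A WD-repeat protein was at 4.68 at 24 dpa and was above the buffer spots in 1 of 12 files.

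Of 7 probes of the protein folding and turnover list, 4 were called higher and 3 lower at 24 dpa, beside 11.3% and 12.3% of all probes. All come from the study's list, chosen partly on 24 dpa, where 53 of 124 probes were higher and 41 lower. The counts are therefore not a result about protein turnover. Their median was 1.12. Both probes for protease P27 were higher, at 2.87 and 4.96, and above the buffer spots in all 12 files. A peptidylprolyl isomerase, an enzyme of protein folding, was at -2.99 and above the buffer spots in 7 of 12 files, and a subtilase, a serine protease, was at -2.23 and above them in all 12.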
